A study of Mus musculus with 7 samples.

Results

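The metallothionein and zinc transport genes examined here are 7 of the 55487 genes in the count table. They are the metallothioneins Mt1 and Mt2, the metal-sensing transcription factor gene Mtf1, the ZnT exporter genes Slc30a1 and Slc30a10, and the ZIP importer genes Slc39a4 and Slc39a14. They were chosen by gene symbol, with Ensembl identifiers paired to symbols through the GENCODE annotation of GRCm38. The RNA came from precision-cut liver slices (PCLS), thin discs of tissue punched from the livers of healthy adult male Balb/c mice and kept in Williams' Medium E with glutamine and antibiotics. The 3 CTR libraries came from slices without any addition on day 3 of culture, and the 4 VPA libraries from slices that had 2.5 mM valproic acid sodium salt in the medium up to the same day. No group carries a genetic change. VPA is a short branched fatty acid that inhibits class I histone deacetylases, and the study compared the groups to learn what this supplement does to gene expression in cultured slices. The libraries read the 3′ end of polyadenylated RNA, so that counts do not grow with the length of a transcript.

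Metallothioneins are small cysteine-rich proteins that bind zinc, copper and cadmium and keep free zinc low inside the cell. Free zinc activates MTF1, which binds metal response elements in DNA and drives Mt1, Mt2 and Slc30a1. In liver, Mt1 and Mt2 are also induced by glucocorticoids, by interleukin-6 (IL-6) through STAT3, and by oxidants, and they are a classical readout of zinc load and of the acute-phase response. ZnT proteins move zinc out of the cytosol, while ZIP proteins move it in.

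The libraries held 1400887 to 4773750 counts on genes, and a count of 0 allows up to 3 counts, or 0.591 to 2.41 CPM, counting error only. Levels are given in CPM (counts per 1000000 counts), with library sizes adjusted by TMM, a scaling that evens out differences in library composition. The summed level of 10 hepatocyte marker genes was 7556 to 21441 CPM in CTR and 5989 to 18675 CPM in VPA libraries. Of the 9 hepatocyte markers tested, 6 were higher and 3 lower with VPA, and 0 had an unadjusted p under 0.05 in edgeR. Of the 7 stellate cell markers tested, 6 were lower and 1 higher, with a median log2 fold change of −1.04, and 2 had an unadjusted p under 0.05 in edgeR. Their summed level was 1381 to 3061 CPM in CTR and 979 to 2471 CPM in VPA libraries. Of all genes tested, 45.8% were higher with VPA, and 8.28% had an unadjusted p under 0.05 in either direction. The summed levels of endothelial markers were 208 to 240 against 69.2 to 236 CPM, those of macrophage markers 196 to 309 against 163 to 418 CPM, and those of cholangiocyte markers 268 to 614 against 258 to 741 CPM. Of the markers tested, 4 of 5 endothelial ones were lower, and 3 of 4 macrophage and 2 of 4 cholangiocyte ones were higher. The median log2 fold changes were −0.61, 0.26 and 0.11, and 0 of these markers had an unadjusted p under 0.05 in edgeR. The macrophage marker Adgre1 was at 0 in all 7 libraries. In such tissue libraries, fewer cells of a type and less RNA per cell cannot be told apart.

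Differences between the groups were tested with edgeR's quasi-likelihood test over the 10876 genes that passed its filter on low counts. Of the 7 genes, 6 passed this filter, and Slc30a10 did not. After Benjamini-Hochberg adjustment over all genes tested, 0 of the 6 had an adjusted p under 0.05, where 0.00919% of all genes tested did. At an unadjusted p under 0.05 in edgeR there was 1 gene, Mt2, which was higher with VPA, where 3.65% of all genes tested were higher and 8.28% differed in either direction. None of the 6 lay below all CTR libraries in every VPA library, a pattern found for 7.41% of all genes tested. DESeq2 gave each of the 7 genes but Slc30a10 an adjusted p. It called 0 of them at an adjusted p under 0.05, where it called 0.999% of the 15415 genes that had an adjusted p. It gave 2 of the 7, Mt1 and Mt2, an unadjusted p under 0.05, where 7.6% of those 15415 genes had one. The values of each gene therefore stand below with their spread. The titles carry slice culture numbers, and since the study counts 1 mouse liver as 1 biological repeat, libraries of the same number were taken to come from the same liver. CTR and VPA libraries share cultures 71, 72 and 74, and VPA replicate 1, of culture 73, has no partner. With slice culture as a block in edgeR, which leaves VPA replicate 1 without weight in the comparison, 2 of the 6 genes, Mt1 and Mt2, had an unadjusted p under 0.05, where 7.98% of all genes tested had one. With this block 0 of the 6 had an adjusted p under 0.05.

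**Figure D1:**
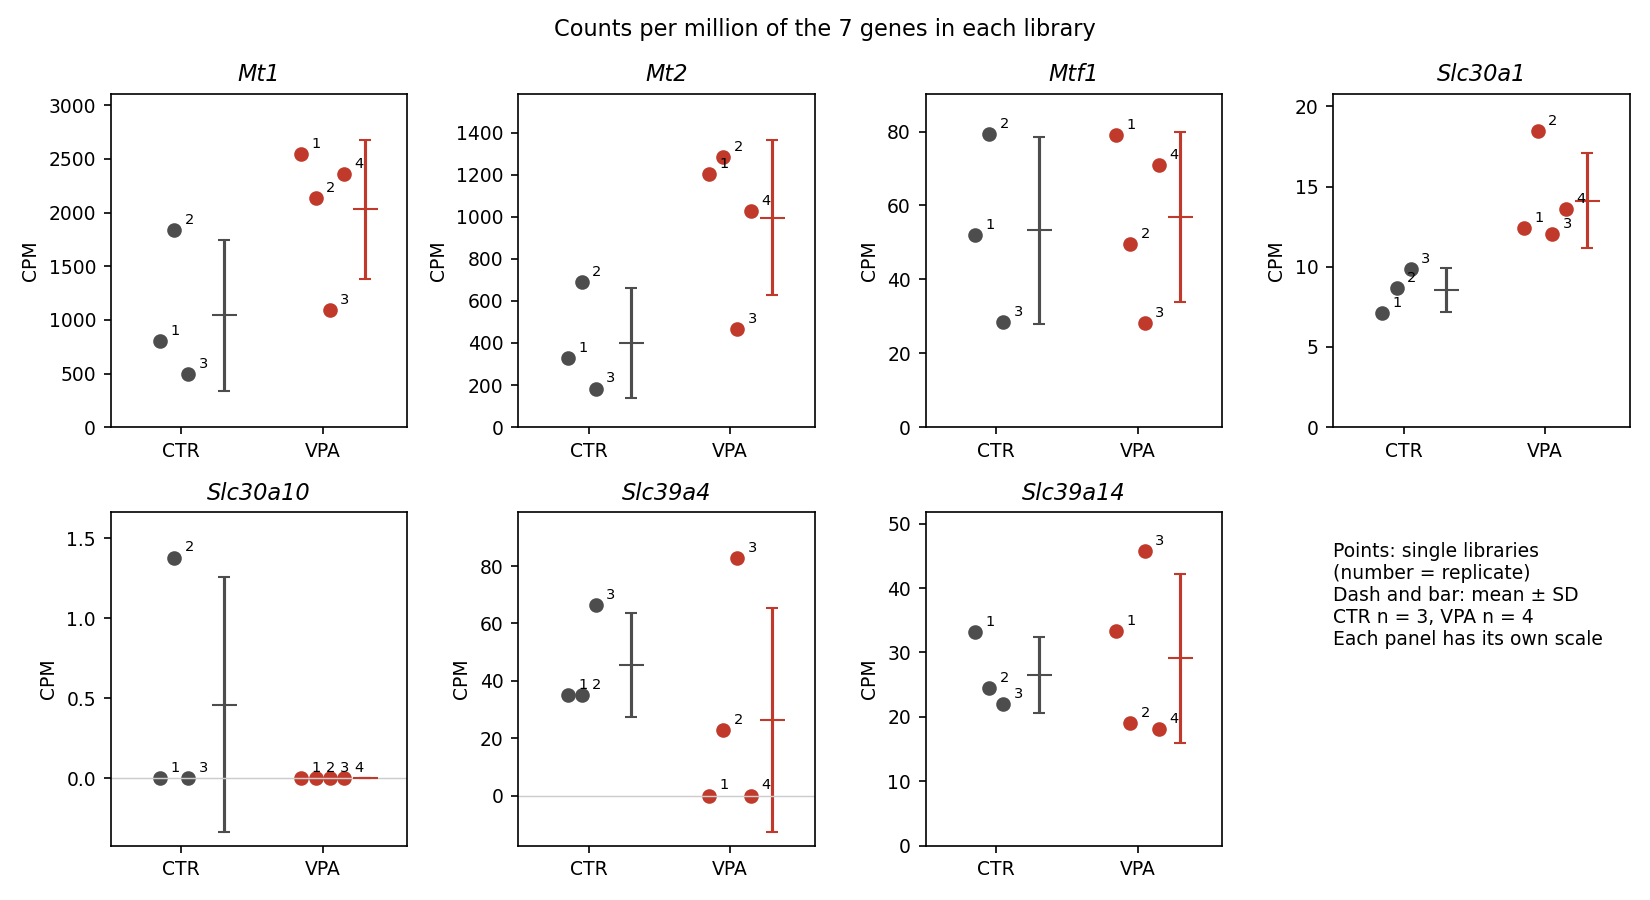
CPM of each gene (vertical axes, a separate linear scale per panel) in the CTR and VPA libraries (horizontal axes). Points are single libraries numbered by replicate, and the dash with its bar is the mean ± SD of 3 CTR or 4 VPA libraries. Mt1 ran from 492 to 1834 CPM in CTR and from 1090 to 2543 CPM in VPA libraries, Slc30a1 was the gene whose groups did not overlap, and Slc39a4 was at 0 in VPA replicates 1 and 4.

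Mt1 and Mt2 are neighbors on chromosome 8 of GRCm38, both on the + strand and both protein coding. Mt2 (ENSMUSG00000031762) lies from 94172664 to 94173568 and Mt1 (ENSMUSG00000031765) from 94179082 to 94180327, with 5513 bases between them. The sequences upstream of both genes and of Slc30a1 are shown because these are the known MTF1 targets among the 7 genes. They are the 250 bases before the RefSeq gene start in build GRCm38.p6, on the + strand. Capitals mark the core of a metal response element, searched as TGCACNC and as TGCGCNC on both strands, so that a core on the other strand reads as GNGTGCA or GNGCGCA. The windows are chr8:94178839-94179088 for Mt1, chr8:94172368-94172617 for Mt2 and chr1:191906531-191906780 for Slc30a1.
Mt1: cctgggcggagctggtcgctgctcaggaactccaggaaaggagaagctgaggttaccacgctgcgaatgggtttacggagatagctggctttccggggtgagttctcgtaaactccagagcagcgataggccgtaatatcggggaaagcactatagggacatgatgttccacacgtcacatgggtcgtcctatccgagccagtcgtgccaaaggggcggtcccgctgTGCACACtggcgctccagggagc
Mt2: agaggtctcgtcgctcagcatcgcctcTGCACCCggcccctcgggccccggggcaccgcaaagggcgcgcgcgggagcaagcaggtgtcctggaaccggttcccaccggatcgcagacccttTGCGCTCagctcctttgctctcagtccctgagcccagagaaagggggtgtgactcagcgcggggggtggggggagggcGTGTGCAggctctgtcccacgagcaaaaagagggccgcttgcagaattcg
Slc30a1: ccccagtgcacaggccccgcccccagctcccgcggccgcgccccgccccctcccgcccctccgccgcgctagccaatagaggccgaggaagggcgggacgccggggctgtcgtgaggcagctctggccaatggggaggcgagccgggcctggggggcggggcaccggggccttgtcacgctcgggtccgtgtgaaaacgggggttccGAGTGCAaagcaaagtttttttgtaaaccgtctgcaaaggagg
The window of Mt1 held 1 core, that of Mt2 held 3, that of Slc30a1 held 1, that of Slc30a10 held 3 including a pair on opposite strands that overlap, and that of Mtf1 held 0. Among 32851 promoter windows of this length, 21.4% held at least 1 core and 1.26% held at least 3. Promoter windows for Slc39a4 and Slc39a14 were not used here.

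**Figure D2:**
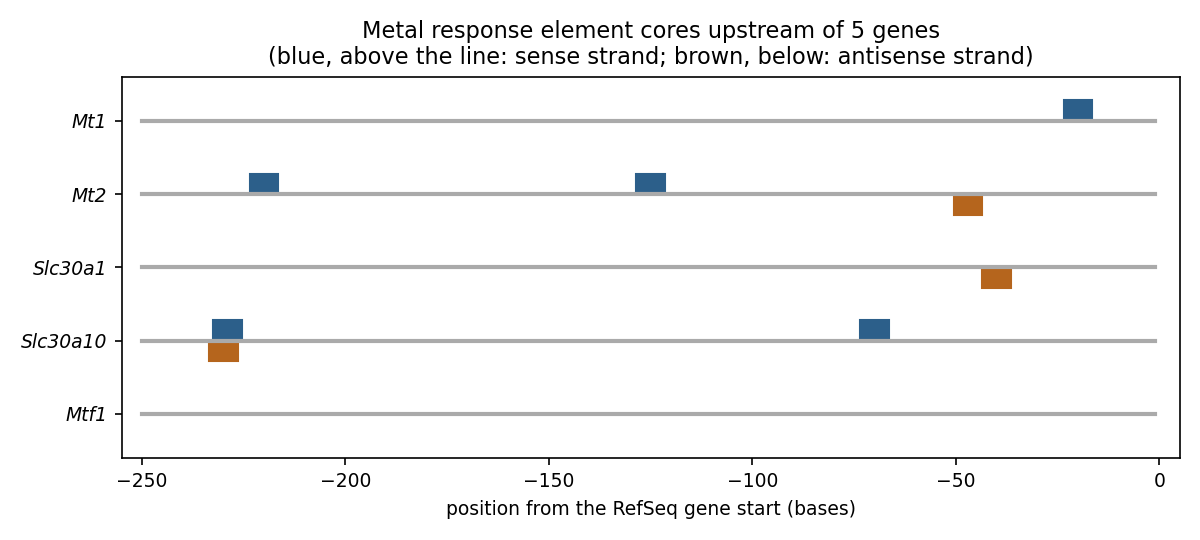
Position of metal response element cores (boxes) in the 250 bases upstream of 5 genes, in bases from the RefSeq gene start, with sense-strand cores above each line and antisense-strand cores below it. The core of Mt1 lies at −23 to −17 and those of Mt2 begin at −223, −128 and −50, while the Mtf1 window holds none.

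The annotated transcripts of Mt1 begin at 3 different places, at bases 94179082, 94179211 and 94179241, so that the longest transcript begins upstream of the other starts. The first 200 bases of that transcript held 4 further cores, where 0.0758% of the 134529 GENCODE transcripts of at least this length held 4 or more. They are shown with 4 bases on either side, with the core in capitals, in order along the transcript at chr8:94179087-94179101, chr8:94179105-94179119, chr8:94179169-94179183 and chr8:94179183-94179197.
Core 1: gctcTGCACTCcgcc
Core 2: aaagTGCGCTCggct
Core 3: tgctGGGTGCAaacc
Core 4: ccttTGCGCCCggac
The same stretch of the first-listed transcript held 3 cores in Mt2, 1 in Slc30a1 and 0 in Mtf1 and Slc30a10. A match is a description of the letters, and binding was not measured in these libraries.

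Mt1, the more counted of the pair, had 803, 1834 and 492 CPM in CTR replicates 1 to 3. In VPA replicates 1 to 4 it had 2543, 2133, 1090 and 2359 CPM. VPA replicates 1, 2 and 4 exceeded every CTR library, while VPA replicate 3 lay between CTR replicates 1 and 2. By level, Mt1 was the 29th to 221st most counted gene in the CTR libraries and the 20th to 66th in the VPA libraries. The mean was 1043 ± 702 CPM (SD, n = 3) without and 2032 ± 649 CPM (SD, n = 4) with VPA. The log2 fold change was 0.96 (standard error 0.48, 95% interval −0.17 to 2.09), and edgeR gave an unadjusted p of 0.0842 and an adjusted p of 0.684. With slice culture as a block it was 0.97 with a standard error of 0.30 (edgeR, unadjusted p = 0.0292 and adjusted p = 0.561). The exact permutation test over the 35 ways to divide the libraries gave p = 0.114 (two-sided), where 0.0286 is the smallest p possible. It was run for each of the 7 genes and for the ratio and share of Mt2, and repeated with other scaling and prior counts. It divides all 7 libraries freely, so the pairing by slice culture is not used.

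Mt2 showed the same order of libraries within CTR, with 330, 689 and 183 CPM in replicates 1 to 3. In VPA replicates 1 to 4 it had 1202, 1284, 466 and 1027 CPM. VPA replicates 1, 2 and 4 again exceeded every CTR library, and VPA replicate 3 lay below CTR replicate 2. The mean was 401 ± 260 CPM (SD, n = 3) without and 995 ± 368 CPM (SD, n = 4) with VPA. This was a fitted 2.48-fold difference, with a 95% interval of 1.09 to 5.66. The log2 fold change of 1.31 (standard error 0.51) had an unadjusted p of 0.0352 and an adjusted p of 0.566 in edgeR, and the two-sided exact permutation p was 0.0857. With slice culture as a block the estimate was 1.29 with a standard error of 0.19 (edgeR, unadjusted p = 0.00183 and adjusted p = 0.494). Gm45774, an antisense gene that overlaps 749 bases of Mt2, held 0 to 34 counts per library against 334 to 4176 on Mt2. No stretch of 50 bases in the last 300 bases of either metallothionein transcript occurred in the annotated transcripts of another gene.

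The spread within each group was wide for both genes, and the same libraries were low in both. CTR replicate 3 and VPA replicate 3, which carry slice culture number 71 in their labels, had the lowest Mt1 and Mt2 levels of their groups. These 2 libraries also had the highest summed hepatocyte markers of their groups, 21441 and 18675 CPM, and the part of this in the metallothionein values was not tested. In the 3 slice cultures with a library of each kind, Mt1 was 2.21, 2.94 and 1.16 times as high in the VPA library for cultures 71, 72 and 74. Mt2 was 2.55, 3.11 and 1.86 times as high there. Without CTR replicate 2, the CTR library of culture 74, the log2 fold changes were 1.64 for Mt1 and 1.95 for Mt2, and without CTR replicate 3 they were 0.60 and 0.94.

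Mt1 and Mt2 together took 0.0707% to 0.268% of all counts in the CTR libraries and 0.138% to 0.378% in the VPA libraries. The ratio of the pair was steadier than their levels. Mt2 held 29.1%, 27.3% and 27.1% of the metallothionein counts in CTR replicates 1 to 3, and 32.1%, 37.6%, 30.0% and 30.3% in VPA replicates 1 to 4. All VPA libraries lay above all CTR libraries. The Wilson 95% interval, which covers counting error only, was 28.0% to 32.0% in VPA replicate 3 and overlapped those of all 3 CTR libraries. That of VPA replicate 4 (29.0% to 31.7%) overlapped those of CTR replicate 1 (27.5% to 30.8%) and CTR replicate 3 (24.7% to 29.7%). The ratio of Mt2 to Mt1 counts was 0.386 ± 0.0215 (SD, n = 3) without and 0.484 ± 0.0807 (SD, n = 4) with VPA. The difference on the log2 scale was 0.31 (two-sided exact permutation test, p = 0.0857), which did not pass the threshold of 0.05. VPA replicate 2 stood highest, and without it the difference was 0.21. In all 3 slice cultures with both kinds of library the ratio was higher with VPA, by 0.20, 0.08 and 0.68 on the log2 scale for cultures 71, 72 and 74.

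**Figure D3:**
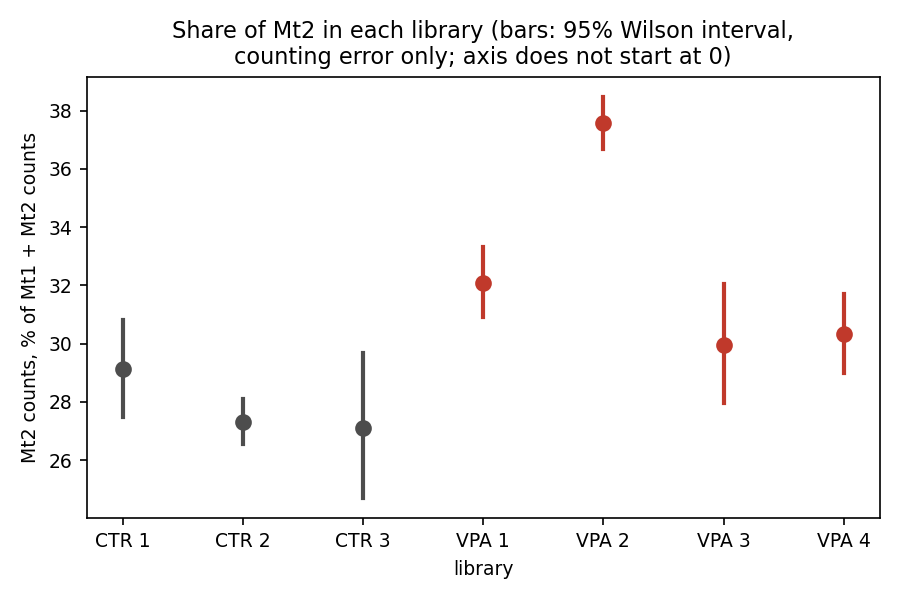
Mt2 counts as a percentage of Mt1 and Mt2 counts together (vertical axis, which does not start at 0) in each library (horizontal axis), with 95% Wilson intervals for counting error. The 3 CTR libraries sit between 27.1% and 29.1%, and the 4 VPA libraries between 30.0% and 37.6%.

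Mtf1 (ENSMUSG00000028890, chromosome 4 from 124802104 to 124849800, + strand) encodes the zinc-sensing activator of the metallothionein genes. It had 52.0, 79.2 and 28.5 CPM in CTR replicates 1 to 3, and 79.0, 49.5, 28.1 and 70.99 CPM in VPA replicates 1 to 4. Both groups covered nearly the same range, with replicate 3 lowest in each. On the log2 scale the fitted change was 0.09 with a standard error of 0.44, and its 95% interval ran from −0.94 to 1.11 (edgeR, adjusted p = 0.981). Its sign turned with 7 of the 15 alternative settings. At its 3′ end Mtf1 overlaps 1110065P20Rik on the other strand over 721 bases. That gene had 6 to 32 counts per library against 35 to 402 on Mtf1, and since the use of strand in the counting is not known, Mtf1 is uncertain to that extent.

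Slc30a1 (ENSMUSG00000037434, chromosome 1 from 191906767 to 191913247, + strand) encodes ZnT1, the exporter that carries zinc across the plasma membrane. It was thinly counted, with 15 to 60 counts per library. The CTR libraries had 7.09, 8.67 and 9.87 CPM for replicates 1 to 3, and the VPA libraries 12.4, 18.4, 12.04 and 13.6 CPM for replicates 1 to 4. All 4 VPA libraries lay above all 3 CTR libraries, which was found for 4.44% of all genes tested. The mean was 8.54 ± 1.39 CPM (SD, n = 3) without and 14.1 ± 2.96 CPM (SD, n = 4) with VPA. The two-sided exact permutation p was 0.0286, the smallest possible, and it was 0.0571 when counts were scaled to the library total without TMM. In edgeR the log2 fold change of 0.73 (standard error 0.46, 95% interval −0.35 to 1.80) had an unadjusted p of 0.156 and an adjusted p of 0.783. Its unadjusted p was 0.0422 with limma-voom (adjusted p = 0.316) and 0.0361 in edgeR with at least 10 counts in every library (adjusted p = 0.324). Counting error was wide at such counts. Scaled to the library total, the exact 95% intervals were 3.89 to 10.4, 6.70 to 12.4 and 6.12 to 16.3 CPM in CTR replicates 1 to 3. In VPA replicates 1 to 4 they were 7.55 to 19.6, 14.8 to 24.9, 5.99 to 17.7 and 7.34 to 19.6 CPM. VPA replicate 2 lay clear of CTR replicates 1 and 2, and every other pair of a CTR and a VPA library overlapped.

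Slc30a10 (ENSMUSG00000026614, chromosome 1 from 185454848 to 185468762, + strand) encodes an exporter whose main known cargo is manganese. It had 7 counts in CTR replicate 2, or 1.38 CPM, and 0 counts in the other 6 libraries. Scaled to the library total, the exact 95% interval in CTR replicate 2 was 0.590 to 3.02 CPM. A count of 0 allows up to 0.922 CPM in VPA replicate 2 and 2.41 CPM in VPA replicate 3. A difference was therefore not detectable at this depth.

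Slc39a4 (ENSMUSG00000063354, chromosome 15 from 76612383 to 76617384, − strand) encodes ZIP4, the zinc importer known best from intestine. It had 35.1, 35.1 and 66.3 CPM in CTR replicates 1 to 3. In VPA replicates 1 to 4 it had 0, 22.8, 82.7 and 0 CPM. VPA replicate 3 was the highest of all 7 libraries. VPA replicates 1 and 4 had 0 counts each, which allows up to 1.96 and 2.27 CPM for counting error only. Such counts of 0 did not stand alone. Of the 5395 genes with at least 20 CPM in every CTR library, 470 (8.71%) were at 0 in at least 1 VPA library and 148 in at least 2. In the other direction, 27 of the 4494 genes with at least 20 CPM in every VPA library were at 0 in a CTR library. Every VPA library had fewer genes with a count, 14359 to 16761, than any CTR library, with 17744 to 19756. VPA replicate 2 had 15241 such genes at 3102450 counts, and CTR replicate 3 had 17744 at 1743675 counts. The cause was not tested. The fitted change of Slc39a4 on the log2 scale was −0.79 with a standard error of 1.42 (edgeR, adjusted p = 0.953). It was −2.46 when VPA replicate 3 was left out, −2.72 with limma-voom and −1.29 with slice culture as a block. Without VPA replicate 1 or without VPA replicate 4 it was −0.39, and without CTR replicate 3 it was −0.44. The exact permutation test gave p = 0.286 (two-sided).

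Slc39a14 (ENSMUSG00000022094, chromosome 14 from 70303469 to 70351425, − strand) encodes ZIP14, which brings zinc, manganese and non-transferrin-bound iron into hepatocytes and is known to be induced by IL-6. It had 33.1, 24.4 and 21.9 CPM in CTR replicates 1 to 3, and 33.3, 19.1, 45.8 and 18.1 CPM in VPA replicates 1 to 4. The VPA libraries lay on both sides of the CTR range, with 2 above and 2 below it. The fitted change on the log2 scale was 0.13, with a standard error of 0.40 and a 95% interval of −0.81 to 1.07 (edgeR, adjusted p = 0.969). Its sign turned with 4 of the 15 alternative settings.

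**Figure D4:**
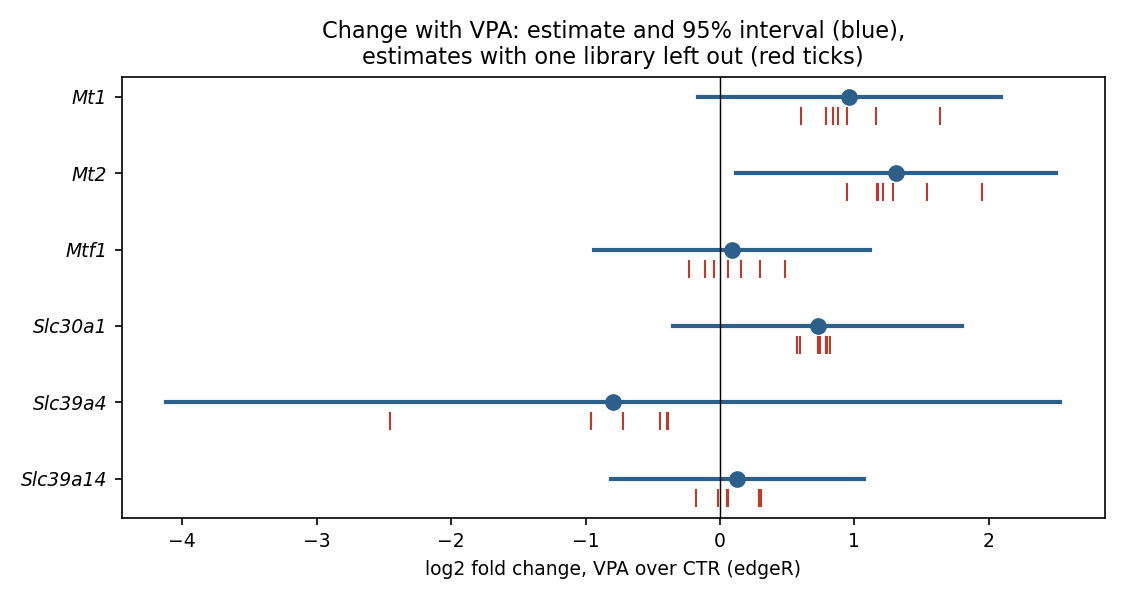
Log2 fold change of VPA over CTR from edgeR (horizontal axis) for the 6 genes that passed the filter (vertical axis). Blue points and bars are the estimate and its 95% interval, and red ticks are the estimates with 1 library left out. The interval of Mt2 runs from 0.12 to 2.50, those of the other 5 genes include 0, and Slc39a4 spreads from −4.12 to 2.53.

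The remaining members of these families were taken from lists of all ZnT and ZIP genes, which include Slc30a1, Slc30a10, Slc39a4 and Slc39a14. Of the 10 ZnT genes, 8 had a count and 5 were tested, of which 3 were higher and 2 lower with VPA, and 0 had an adjusted p under 0.05 in edgeR. The median log2 fold change of these 5, with Slc30a1 among them, was 0.61, where that of all genes tested was −0.06. Slc30a4 had 21.5 ± 6.83 CPM (SD, n = 3) without and 32.6 ± 6.71 CPM (SD, n = 4) with VPA, and Slc30a9, the most counted, 38.1 ± 10.7 and 33.1 ± 10.1 CPM. Of the 14 ZIP genes, 11 had a count and 10 were tested, with 5 higher, 5 lower and 0 called. Their median log2 fold change was −0.03. The ZIP gene with an unadjusted p under 0.05 was Slc39a10, which encodes a plasma membrane importer known to be held down by MTF1 when zinc is high. It had 42.2 ± 14.4 CPM (SD, n = 3) without and 15.5 ± 9.15 CPM (SD, n = 4) with VPA. On the log2 scale it differed by −1.44 with a standard error of 0.51 (edgeR, unadjusted p = 0.0242 and adjusted p = 0.534), and the groups overlapped narrowly, with 26.6 to 54.8 CPM in CTR and 5.88 to 27.9 CPM in VPA libraries. A lower value at an unadjusted p under 0.05 was found for 4.62% of all genes tested. Slc39a1 and Slc39a6, the most counted ZIP genes, had log2 fold changes of −0.34 and 0.05 (adjusted p = 0.792 and 0.974 from edgeR).

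**Figure D5:**
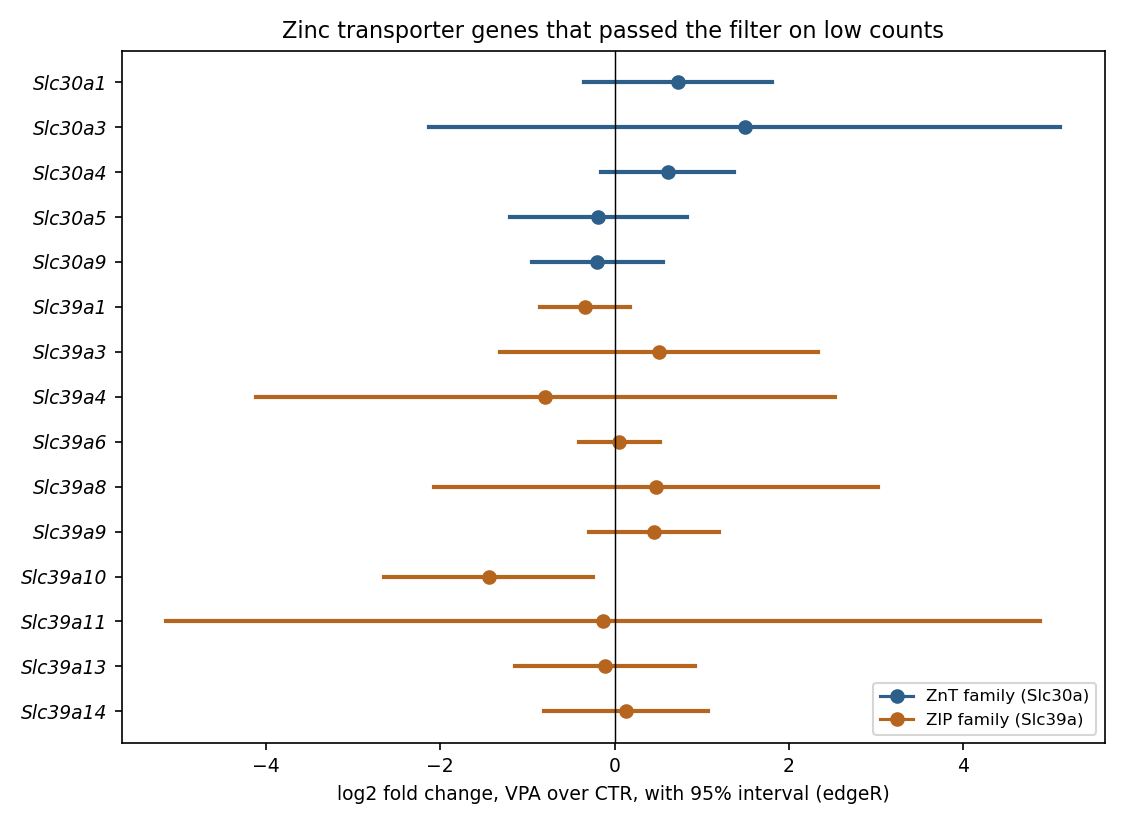
Log2 fold change of VPA over CTR with its 95% interval from edgeR (horizontal axis) for the 5 ZnT genes in blue and the 10 ZIP genes in brown that passed the filter (vertical axis). Estimates lie on both sides of 0 in each family, and Slc39a10, at −1.44, is the gene whose interval excludes 0.

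Of the 4 metallothionein genes, Mt3 and Mt4 were listed at 0 in every library. So were Slc30a2, Slc30a8, Slc39a5, Slc39a7 and Slc39a12. Slc39a7 shares its strand and position with the annotated gene Gm20427, which had 151 to 651 counts per library, so that its own level cannot be read from this table. Slc39a5 overlaps Ankrd52 on the other strand.

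Genes of neighboring metal and stress pathways were examined in the same fit, and 0 of them had an adjusted p under 0.05 in edgeR. Of all genes tested, 45.8% were higher with VPA, and at an unadjusted p under 0.05 3.65% were higher and 4.62% lower. Of the 13 copper genes tested, a list that includes Mt1 and Mt2, 9 were higher and 4 lower, with a median log2 fold change of 0.40. Cox17, which carries copper to cytochrome c oxidase, had 41.5 ± 13.6 CPM (SD, n = 3) without and 86.7 ± 35.2 CPM (SD, n = 4) with VPA (1.06 ± 0.39 SE on the log2 scale, with an edgeR adjusted p of 0.543). Cp, which encodes the plasma copper protein ceruloplasmin, had 848 ± 499 CPM without and 279 ± 170 CPM with VPA (−1.61 ± 0.53 SE on the log2 scale, with an edgeR adjusted p of 0.487). Of the 16 iron genes tested, 9 were higher and 7 lower with a median of 0.11, and 0 had an unadjusted p under 0.05.

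Genes that respond to the other known inducers of metallothioneins had medians on both sides of 0. Of the 19 IL-6 and STAT3 responsive genes tested, 12 were lower and 7 higher, with a median log2 fold change of −0.30. At an unadjusted p under 0.05 there were 2 of the 19, both acute-phase genes at lower values with VPA, where 4.62% of all genes tested were lower. Saa1 had 126 ± 84.4 CPM (SD, n = 3) without and 28.0 ± 12.3 CPM (SD, n = 4) with VPA, and Hp, which encodes haptoglobin, 758 ± 564 and 119 ± 119 CPM (adjusted p = 0.393 and 0.447 from edgeR). Of the 14 NRF2 and oxidant response genes, 13 were lower and 1 higher, with a median of −0.31, where 45.8% of all genes tested were higher. At an unadjusted p under 0.05, 4 of the 14 were lower, where 4.62% of all genes tested were. Among these, Nfe2l2, which encodes NRF2 itself, had 393 ± 208 CPM without and 183 ± 45.0 CPM with VPA. Slc7a11, the cystine importer, had 47.2 ± 12.1 and 22.3 ± 11.8 CPM, and Keap1, the NRF2 inhibitor, 102 ± 20.1 and 67.3 ± 15.7 CPM. Of the 9 glucocorticoid responsive genes tested, 6 were higher and 3 lower, with a median of 0.18. Dusp1, a phosphatase of MAP kinases, had 20.7 ± 9.24 CPM without and 46.3 ± 17.1 CPM with VPA (1.16 ± 0.42 SE on the log2 scale, with an edgeR adjusted p of 0.543).

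The genes whose log2 CPM followed each gene most closely over the 7 libraries were taken by Pearson's r, as a description. All points share the libraries and their groups, and 6392 genes were searched, so that a high r is easily reached. For Mt1 these were Fgd6 (r = 0.989) and Mul1 (r = 0.985), and the r of Mt1 with Mt2 was 0.983. For Mt2 they were Tiprl (r = 0.991) and Rabggtb (r = 0.987). Mtf1 was followed by Clpp (r = 0.990) and Sars (r = 0.984), and its r was 0.770 with Mt1 and 0.691 with Mt2. Slc30a1 was followed by Suclg2 (r = 0.953) and Rab21 (r = 0.951), with an r of 0.570 with Mt1, 0.673 with Mt2 and 0.004 with Mtf1. Slc39a4 had an r of −0.711 with Mt1, and its closest genes were Fam234a (r = 0.995) and Traf4 (r = 0.988). These r values rest largely on VPA replicates 1 and 4, the libraries with the highest Mt1. Slc39a4 had 0 counts there, at a log2 CPM of −0.26 set by the prior count, against 4.56 to 6.38 in the other libraries. Slc39a14 was followed by Igsf11 (r = 0.989) and Ptprg (r = 0.943), and its r with Mt1 was −0.223.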

How the data were processed

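Bulk RNA-seq of 3 CTR and 4 VPA mouse PCLS libraries was analyzed. The authors prepared 3′ end libraries, mapped the reads to GRCm38 with STAR, used StringTie for assembly, and deposited raw read counts per Ensembl gene, without normalization. The counting program and its use of strand are not given in the sources used here. Groups came from the sample titles. With R 4.3.3, counts were tested with edgeR 4.0.16 (TMM, filterByExpr, robust quasi-likelihood fit, condition as the only term) over 10876 genes. P-values were adjusted by Benjamini-Hochberg, and 0.05 was the threshold. Standard errors are the log2 fold change over the square root of F. Log2 CPM values used a prior count of 2, and exact permutation tests took the absolute difference of means. DESeq2 1.42.0, limma 3.58.1 (voom), other filters and scaling, blocks, and leaving out each library were alternatives. The 7 genes and all lists were chosen with earlier results of these data known. Named besides the 7 genes were, per list, up to 3 genes with the smallest unadjusted p under 0.05 whose higher group averaged 5 CPM or more, and the 2 genes of at least 20 CPM most like each member. Genes named for being most counted, at 0 or overlapping were chosen after their values were seen. Each test across genes was first tested on simulated data drawn with the dispersions fitted by edgeR. There DESeq2 made more false calls than edgeR or limma-voom, and it also recovered more of the changed genes. Pairing by slice culture number rests on the titles and on the study's definition of a biological repeat as 1 liver. Deviations from the group means correlated by 0.107, 0.0256 and 0.0546 between the libraries of cultures 71, 72 and 74. Promoter sequences are from RefSeq (GRCm38.p6), with an entry for 5 of the 7 genes. Replicates of a group were compared by chi-square per degree of freedom (13.0 to 24.3), which exceeded sampling noise, so each library counted as 1 replicate. Libraries held 1400887 to 4773750 counts.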

Additional observations from a re-analysis of the deposited data

Results flagged for a closer look

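Of 11 measures compared over the 4 VPA libraries, 2 had a library far from the rest, and chance flags about 1 in 20 such groups. The summed level of Mt1 and Mt2 was 1557 CPM in VPA replicate 3, while the other 3 VPA libraries had 3386 to 3745 CPM. VPA replicate 2 held 3102450 counts on genes, while the other 3 held 1400887 to 1515954, and it was also the library with the highest share of Mt2.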

How the results depend on the processing

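Across 15 other settings, 0 of the 7 genes had an adjusted p under 0.05, and Slc30a10 was given one only with no filter on low counts (0.680). At an unadjusted p under 0.05 there were 0 to 3 of them per setting, with 3 under limma-voom (Mt1, Mt2 and Slc30a1). Of the 10876 genes tested, limma-voom gave 1642 an unadjusted p under 0.05, where the main edgeR fit gave 900. The direction of Mt1, Mt2, Slc30a1 and Slc39a4 held in every setting that could test them. The adjusted p of Mt2 ran from 0.252 to 1.000 and its unadjusted p from 0.00183 to 0.102. The log2 fold change of Mtf1 turned to −0.0055 with limma-voom, −0.020 with no filter on low counts, −0.092 with the replicate block by slice culture and −0.037 by replicate number, and that of Slc39a14 to −0.068 with limma-voom and −0.063 with the block by slice culture. For Slc39a14 the mean log2 CPM difference was −0.019 with scaling to the library total, where Slc30a1 had 0.60 (exact permutation test, p = 0.0571). With 1 library left out, the log2 fold changes ran from 0.60 to 1.64 for Mt1, 0.94 to 1.95 for Mt2, −0.23 to 0.49 for Mtf1, 0.57 to 0.82 for Slc30a1, −2.46 to −0.39 for Slc39a4 and −0.18 to 0.31 for Slc39a14. The VPA minus CTR difference of the log2 ratio of Mt2 to Mt1 ran from 0.21 to 0.37. Slc39a4 has no value with at least 10 counts in every library, since it was at 0 in 2.

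edgeR called 1 gene in the whole table, DESeq2 154, no filter 10 and at least 10 counts in every library 36. Both blocks gave 0, and leaving out 1 library gave 0 to 2. For these counts the cause was not tested. The block by slice culture changed no call at an adjusted p under 0.05 for the 7 genes. At an unadjusted p under 0.05 it gave 2 of them, against 1 without it, where 7.98% and 8.28% of all genes tested had one. Of the 6 libraries with a partner, 5 correlated best with the library of their own culture and 3 with that of their own replicate number. Replicate numbers 2 and 3 pair the same libraries as cultures 74 and 71, and replicate 1 joins libraries of cultures 72 and 73, whose deviations from the group means correlated by −0.0539. With the block by replicate number, the unadjusted p in edgeR was 0.0326 for Mt1 and 0.00310 for Mt2. Depth limits Slc30a1, with 15 to 60 counts per library, and Slc30a10 most.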
